A study of Homo sapiens with 4 samples.

Results

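Aminoacyl-tRNA synthetases are the enzymes that load each tRNA with its amino acid, and 38 genes of this system were examined among the 60671 genes measured. They were matched by symbol to a list of the system and comprised 19 cytosolic enzymes, 16 mitochondrial enzymes and 3 scaffold proteins. GARS1 and KARS1, whose genes also make the mitochondrial enzyme for glycine and lysine, were counted as cytosolic. All 38 genes had an identifier and reached 1 TPM in at least 1 library of each cell line. TPM is the length-corrected abundance of a transcript as a share of all transcripts in its library.

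The RNA came from 2 established human prostate carcinoma lines, 22RV1 and PC3. Each line stably expressed a control short hairpin RNA (shCON) or a hairpin against the DEAD-box RNA helicase DDX52 (shDDX52). Both hairpins were delivered by lentivirus and carrying cells were selected with puromycin, so shCON cells shared vector and selection with shDDX52 cells. A single DDX52 hairpin was sequenced, and each of the 4 conditions had 1 library. Without replicates, no p-value was given for any difference below. Values are listed with 22RV1 before PC3 and shCON before shDDX52.

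The cytosolic enzymes read the genetic code for the proteins made on cytoplasmic ribosomes, while the mitochondrial enzymes, also encoded in the nucleus, serve the few proteins translated inside the organelle. Several cytosolic enzymes are held in the multisynthetase complex by the scaffold proteins AIMP1, AIMP2 and EEF1E1, and the others work free of it. Many cytosolic synthetase genes belong to the amino acid response, in which ATF4, a transcription factor made when amino acids run short or the endoplasmic reticulum is stressed, binds CARE sites (C/EBP-ATF response elements). The core letters of such a site are TGATGNAA, where N is any base.

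Promoters were examined because the cytosolic enzymes are divided below by whether they are listed as ATF4 targets. The core was searched on both strands in RefSeq windows of GRCh38.p14 that ran from 250 bases before a gene start to 50 after it. Windows existed for 33 of the 38 genes and not for AARS2, LARS1, VARS1, VARS2 and YARS1. The core stood in 7 of 16 cytosolic genes with a window (TARS1, GARS1, IARS1, CARS1, MARS1, AARS1 and NARS1), in 1 of 14 mitochondrial genes (YARS2) and in 0 of 3 scaffold genes. Of all windows 3.62% held it, and of all genes with a window 4.46% did. All 7 cytosolic genes were among the 10 with a window that are generally listed as ATF4 targets, and 0 of the 6 other cytosolic genes had a match. That listing partly rests on such elements, so the agreement is not independent. A letter match is a description and no measured site. The stretches around 5 of the matches are shown 5′ to 3′ on the gene's strand with the match in capitals, where TTGCATCA is the core read on the opposite strand.
TARS1 (chr5:33440911-33441014, plus strand): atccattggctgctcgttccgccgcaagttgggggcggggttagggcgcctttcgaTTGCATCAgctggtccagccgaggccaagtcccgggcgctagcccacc
IARS1 (chr9:92293648-92293766, minus strand): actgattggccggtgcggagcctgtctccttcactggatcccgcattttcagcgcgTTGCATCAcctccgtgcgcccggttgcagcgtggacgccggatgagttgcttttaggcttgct
CARS1 (chr11:3057374-3057481, minus strand): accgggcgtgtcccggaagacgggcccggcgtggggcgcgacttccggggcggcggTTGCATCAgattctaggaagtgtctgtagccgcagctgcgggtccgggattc
MARS1 (chr12:57488008-57488117, plus strand): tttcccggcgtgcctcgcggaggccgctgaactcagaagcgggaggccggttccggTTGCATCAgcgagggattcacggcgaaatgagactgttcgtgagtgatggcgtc
GARS1 (chr7:30594789-30594908, plus strand): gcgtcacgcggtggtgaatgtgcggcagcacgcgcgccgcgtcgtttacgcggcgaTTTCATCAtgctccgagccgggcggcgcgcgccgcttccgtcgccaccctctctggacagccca

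These 5 stretches are shown because the genes include 3 that fell in 22RV1 and the gene that rose in PC3, and because the match lies at or near the annotated start. Its first base was 2 bases before the start in CARS1, 4 before it in MARS1, 13 before it in IARS1 and 33 before it in GARS1, and it was the third base of the transcript in TARS1. TARS1, IARS1, CARS1 and MARS1 carried the same 8 letters, and GARS1 differed from them within the core at the base written N. In AARS1 the match stood 187 bases before the start, and in NARS1 it began at base 15 of the transcript. WARS1, SARS1 and EPRS1, also listed as ATF4 targets, had a window without the core, and WARS1 and SARS1 fell in 22RV1 too. The E-box CACGTG, a site that Myc and related factors bind, was searched in the same way and stood in 7.26% of all windows and 8.77% of genes. It was present in 1 of 16 cytosolic genes (IARS1), 3 of 14 mitochondrial genes (MARS2, CARS2 and EARS2) and 1 of 3 scaffold genes (AIMP2).

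The targeted gene was examined before the members. DDX52 was 4.88 TPM (shCON) and 1.2 TPM (shDDX52) in 22RV1, and 9.2 and 2.07 TPM in PC3, that is, 24.6% and 22.5% of the control level. Of the cell line markers, KLK2 was 32.6 and 23.05 TPM in the 22RV1 libraries and listed at 0 in PC3, while CAV1 was at most 0.45 TPM in 22RV1 and at least 130.24 in PC3. The epithelial keratin genes KRT8 and KRT18 were at 488.46 TPM or more in every library. Of 6 markers of blood, endothelium and fibroblasts the highest value was 8.65 TPM (COL1A1 in PC3 shCON). Depth is unknown, because TPM keeps none. Genes of the mitochondrial genome held 9.81% and 13.0% of TPM in 22RV1 and 8.10% and 10.3% in PC3, shCON first, and rRNA genes held 1.21%, 0.0872%, 0.0923% and 3.13% in the same library order. The TPM of a library add up to a set sum, so these classes shift all other values, and their part in the results was not tested beyond the rescaled values given below.

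The cytosolic enzymes were the more abundant group in every library. Their median was 189.39 TPM (shCON) and 123.69 TPM (shDDX52) in 22RV1, and 84.4 and 89.89 TPM in PC3. The mitochondrial enzymes had medians of 21.435, 20.99, 15.995 and 12.61 TPM in that order. The summed TPM of the cytosolic group was 6.59, 5.52, 4.06 and 4.56 times the mitochondrial sum. The highest cytosolic genes were QARS1, for glutamine, with 360.02, 371.57, 259.05 and 297.03 TPM, and FARSA, the alpha subunit of the phenylalanine enzyme, with 355.89, 368.01, 281.24 and 312.87 TPM. FARSB, the beta subunit of the same enzyme, was the lowest cytosolic gene at 19.78, 16.17, 23.58 and 20.2 TPM, so the messages for the 2 subunits stood far apart in all 4 libraries. Among the mitochondrial enzymes, TARS2, for threonine, was highest in 22RV1 at 79.31 and 85.35 TPM, and CARS2, for cysteine, in PC3 at 113.74 and 96.78 TPM. WARS2, for tryptophan, was lowest in 3 of the libraries with 4.24 and 3.32 TPM in 22RV1 and 3.48 TPM in PC3 shDDX52. PARS2, for proline, was lowest in PC3 shCON at 3.79 TPM. All 38 genes together held between 0.255% and 0.382% of the TPM in a library.

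**Figure D1:**
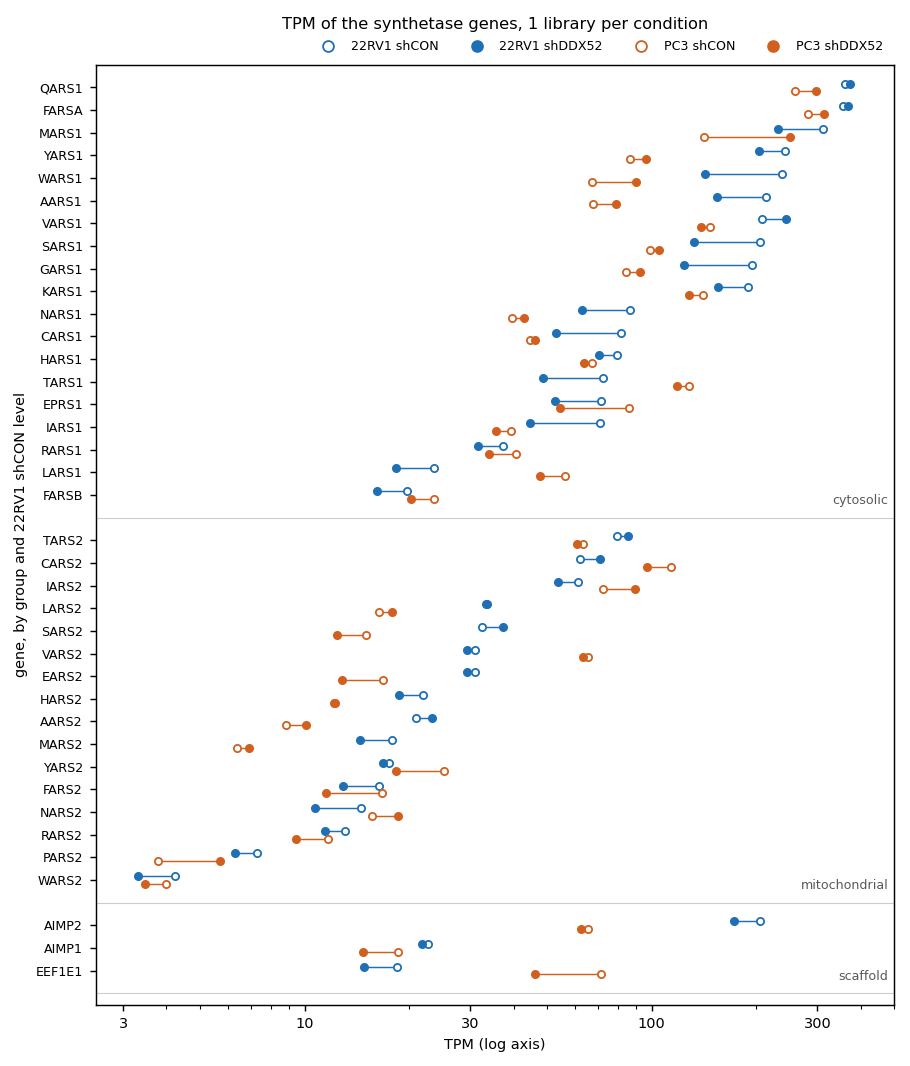
TPM of all 38 genes on a log axis, 1 row per gene by group, with 1 point for each of the 4 libraries, open for shCON and filled for shDDX52, and a line joining those of a cell line (no error bars, since each condition has 1 library). The cytosolic medians of 84.4 to 189.39 TPM lie to the right of the mitochondrial medians of 12.61 to 21.435 TPM.

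In 22RV1 cells, most cytosolic synthetase messages were lower with shDDX52. Changes are given as the log2 ratio, log2((TPM shDDX52 + 1)/(TPM shCON + 1)), and a gene is said to have risen or fallen only where that ratio reached 1.5-fold. The cytosolic median was −0.43, against −0.076 for the 14438 genes that reached 1 TPM in either 22RV1 library. Of the 19 enzymes, 16 were below 0 and 3 above, where 58.8% of all genes were below 0. WARS1, IARS1, GARS1, SARS1 and CARS1 fell, and 0 enzymes rose. Of all genes 8.47% fell by this measure and 5.61% rose, and among genes of at least 5 TPM, which all 19 are, 6.28% and 3.58%. In sum, the cytosolic enzymes were at 82.5% of their control TPM.

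WARS1 encodes the cytosolic tryptophan enzyme and had the lowest ratio of the group. It was 237.57 TPM (shCON) and 142.08 TPM (shDDX52) in 22RV1, and 67.23 and 89.89 TPM in PC3. The highest library was 22RV1 shCON, and the order of shCON and shDDX52 was opposite in the 2 lines, with log2 ratios of −0.74 and 0.41. In 22RV1 5.14% of genes had a ratio at or below that of WARS1, and in PC3 85.0% did.

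GARS1, for glycine, was 194.91 and 123.69 TPM in 22RV1 and 84.4 and 92.28 TPM in PC3. SARS1, for serine, was 205.15 and 132.53 TPM in 22RV1 and 98.67 and 104.68 in PC3. CARS1, for cysteine, was 81.66 and 53.1 TPM in 22RV1 and 44.6 and 46.17 in PC3. These 3 enzymes shared a pattern, with 63.5%, 64.6% and 65.0% of the control level in 22RV1 (log2 ratios −0.65, −0.63 and −0.61) and PC3 ratios of 0.13, 0.08 and 0.05. The PC3 ratio of CARS1 became −0.17 once ratios were centred on genes with like transcript length and GC content (length and GC centring).

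IARS1, for isoleucine, was the only enzyme of the multisynthetase complex that fell in 22RV1. It was 70.87 TPM (shCON) and 44.56 TPM (shDDX52) in 22RV1, and 39.32 and 35.61 TPM in PC3. Its ratio was −0.66 in 22RV1 and −0.14 in PC3, so unlike the 4 others it was below its control in both lines. TARS1, for threonine, lay just short of the fold with 72.22 and 48.59 TPM in 22RV1 and a ratio of −0.56. AARS1 and NARS1 followed at −0.46 each, and EPRS1 and MARS1 at −0.43 each. The fall of the 5 genes depended on scaling: with ratios centred on the median of all genes, or with length and GC centring, WARS1 alone passed the fold, at −0.66 and −0.63. All 16 enzymes below 0 except HARS1 kept that sign under every scaling tried.

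VARS1, QARS1 and FARSA were the 3 cytosolic enzymes above their control in 22RV1. VARS1, for valine, was 208.23 and 243.37 TPM in 22RV1 and 147.25 and 138.85 in PC3. Its ratio of 0.22 in 22RV1 was the highest of the group and short of the fold. QARS1 and FARSA each had a ratio of 0.05 in 22RV1, with 0.20 and 0.15 in PC3, and they were the only cytosolic enzymes above control in both lines.

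**Figure D2:**
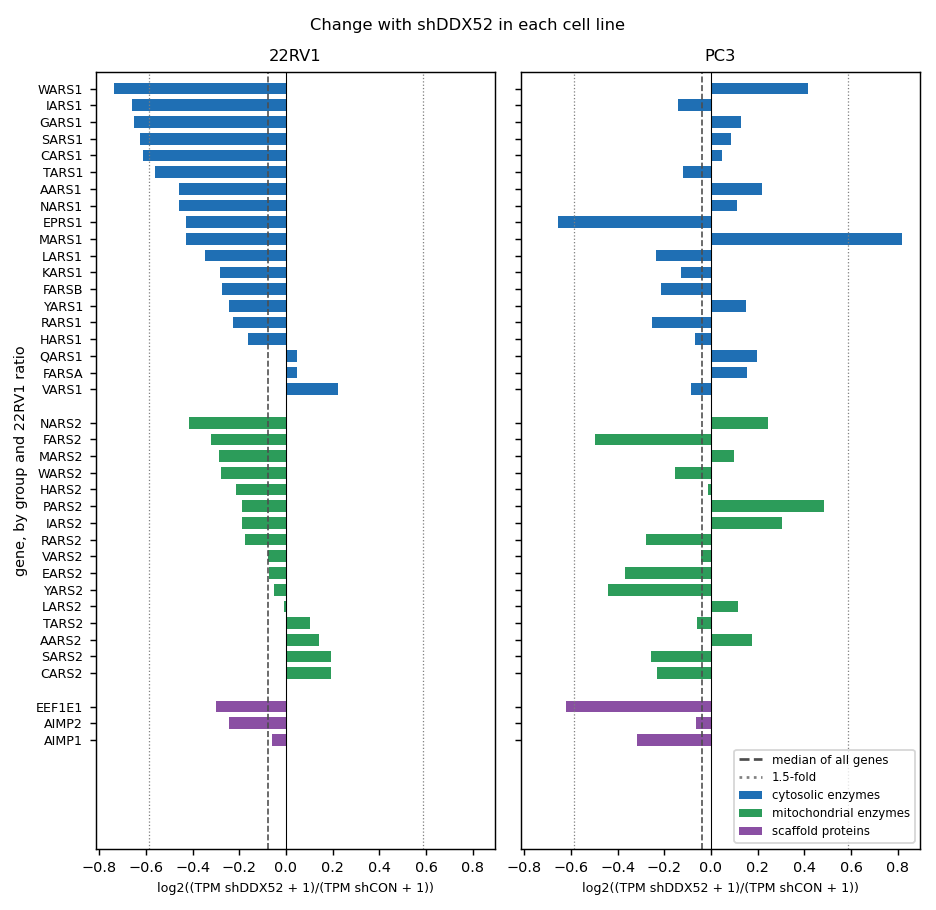
Log2 ratio of each of the 38 genes with shDDX52 in 22RV1 (left) and PC3 (right), grouped by compartment and ordered by the 22RV1 ratio, with a dashed line at the median of all genes and dotted lines at 1.5-fold. Bars rest on 1 library per condition and carry no error. Of the cytosolic enzymes 16 of 19 lie below 0 in 22RV1 and 9 of 19 in PC3.

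In PC3 cells the cytosolic enzymes were balanced around 0. Their median log2 ratio was 0.049, against −0.036 for 14262 genes. The ratio was below 0 in 9 enzymes and above 0 in 10, where 53.5% of all genes were below 0. EPRS1 fell and MARS1 rose. Of all genes 9.84% fell and 8.95% rose, and of genes of at least 5 TPM 8.15% and 7.28%, so counts of 1 in 19 in each direction were near the background. The PC3 sign of CARS1, HARS1, KARS1, RARS1, TARS1 and VARS1 depended on scaling. In sum the group was at 108% of its control TPM, and most of that excess came from MARS1 alone.

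MARS1, for methionine, which also loads the initiator tRNA, was 310.41 TPM (shCON) and 230.53 TPM (shDDX52) in 22RV1, and 141.07 and 249.68 TPM in PC3. With shDDX52 the level was thus lower in 22RV1 and higher in PC3, and the shDDX52 libraries of the 2 lines stood close together. Its PC3 ratio was 0.82, at 177% of control, and 95.7% of genes had a ratio at or below it. The annotated exons of MARS1 share 355 bases with DDIT3, a stress-response gene on the opposite strand. Whether reads were counted by strand is not given in the sources used here, so reads from the shared bases cannot be told apart. DDIT3 was 44.88, 25.87, 14.31 and 19.75 TPM in the same library order, below MARS1 in each library.

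EPRS1, a single protein that carries both the glutamate and the proline enzyme, was 71.29 TPM (shCON) and 52.69 TPM (shDDX52) in 22RV1, and 86.14 and 54.3 TPM in PC3. It was below its control in both lines, with ratios of −0.43 and −0.66. EPRS1 was thus the only cytosolic enzyme that fell in PC3, but at −0.53 it was short of the fold when TPM was recomputed over nuclear protein-coding genes. That rescaling moved the median of all PC3 genes from −0.036 to 0.087, and MARS1 to 0.95.

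The cytosolic enzymes were then divided by whether they are generally listed as ATF4 targets. The 12 listed enzymes (AARS1, CARS1, EPRS1, GARS1, IARS1, LARS1, MARS1, NARS1, SARS1, TARS1, WARS1 and YARS1) had a median of −0.51 in 22RV1 and all 12 were below 0, in the range −0.74 to −0.24. The 7 other enzymes had a median of −0.16, with 4 below 0 and 3 above, near the 58.8% of all genes below 0. Summed TPM was 70.1% of control in the listed and 100.6% in the other enzymes, so the lower cytosolic sum in 22RV1 lay in the listed enzymes. All 5 genes that fell were listed ones, where 8.47% of all genes fell. In PC3 the listed enzymes had a median of 0.099 with 4 below 0 and 8 above, and the others −0.084 with 5 below and 2 above. Of all PC3 genes 53.5% were below 0. The summed TPM was 112% of control in the listed enzymes (939.87 and 1055.95 TPM) and 103.8% in the others. MARS1 alone, with 141.07 and 249.68 TPM in PC3, made up most of the excess in the listed sum. The median of the 7 other enzymes was not stable in sign, since it was 0.015 in 22RV1 after length and GC centring and 0.045 in PC3 with nuclear protein-coding TPM. Grouping and result were known together, so the split is a description.

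**Figure D3:**
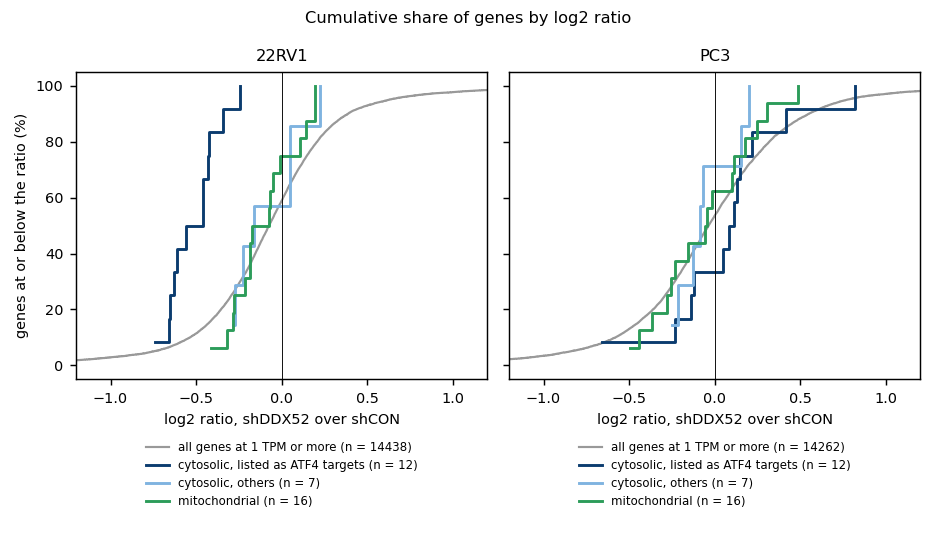
Cumulative share of genes (%) against the log2 ratio in 22RV1 (left) and PC3 (right), for all genes of at least 1 TPM, the 12 cytosolic enzymes listed as ATF4 targets, the 7 other cytosolic enzymes and the 16 mitochondrial enzymes. In 22RV1 the listed enzymes end at −0.24, left of 0. The mitochondrial median of −0.13 is near the −0.076 of all genes, with 75% and 58.8% of genes below 0.

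The amino acid response genes themselves were examined as a list of 19 pathway genes. In 22RV1 18 of the 19 were below 0, with a median of −0.40, where 58.8% of all genes were below 0 with a median of −0.076. ATF4 was 782.88 TPM (shCON) and 593.44 TPM (shDDX52) in 22RV1, and 344.98 and 392.17 TPM in PC3. ASNS, which makes asparagine, was 161.2, 62.35, 20.87 and 21.47 TPM in that order. It was thus far above the other libraries in 22RV1 shCON, with a ratio of −1.36 in 22RV1 and 0.04 in PC3. ASNS, CHAC1, DDIT3, PSAT1 and ATF3 fell in 22RV1, CHAC1 on low values of 6.16 and 2.61 TPM, while ATF5 rose at 0.67. Of all genes 8.47% fell and 5.61% rose in 22RV1. In PC3 12 of the 17 genes that reached 1 TPM were above 0, with a median of 0.19. All genes there had a median of −0.036, and 53.5% were below 0. In PC3 SESN2 rose at 0.81 on low values of 2.93 and 5.91 TPM, ATF3 rose at 0.74 and CEBPB fell at −0.61. Of all genes 8.95% rose and 9.84% fell, so counts of 2 and 1 in 17 were near the background. The list and the ATF4-listed enzymes thus both had medians below that of all genes in 22RV1 and above it in PC3, while ATF4 protein was not measured in these libraries. The CARE core stood in 4 of the 16 pathway genes with a promoter window, and in 4.46% of all genes with one.

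The mitochondrial enzymes had medians near that of all genes. Their median log2 ratio was −0.13 in 22RV1, with 12 of 16 below 0 (58.8% of all genes), and −0.051 in PC3, with 10 of 16 below 0 (53.5% of all genes). In both lines 0 of 16 rose or fell by 1.5-fold, where 5.61% of all genes rose and 8.47% fell in 22RV1, and 8.95% and 9.84% in PC3, so a count of 0 in 16 is near the background. The summed TPM was 98.5% of control in 22RV1 and 96.2% in PC3. The medians were small enough for scaling to matter: in 22RV1 the value was −0.0041 after length and GC centring, and in PC3 it was 0.077 with nuclear protein-coding TPM. The sign depended on scaling for AARS2, EARS2, LARS2, RARS2 and YARS2 in 22RV1 and for HARS2, TARS2 and VARS2 in PC3.

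Individual mitochondrial ratios lay between −0.41 and 0.19 in 22RV1, and between −0.49 and 0.48 in PC3. NARS2, for asparagine, had the lowest 22RV1 ratio at −0.41, with 14.57 and 10.68 TPM, and it was 15.59 and 18.64 TPM in PC3 (0.24). FARS2, the single-chain phenylalanine enzyme of the organelle, was 16.37 and 12.9 TPM in 22RV1 and 16.67 and 11.54 in PC3. It was below control in both lines and had the lowest PC3 ratio at −0.49. PARS2 had the highest PC3 ratio at 0.48 on low values of 3.79 and 5.7 TPM, and was 7.31 and 6.3 TPM in 22RV1. YARS2, for tyrosine, was 25.21 and 18.31 TPM in PC3 (−0.44) and 17.48 and 16.84 in 22RV1 (−0.05). EARS2, for glutamate, was 16.8 and 12.81 TPM in PC3 (−0.37), and 30.9 and 29.36 in 22RV1 (−0.07). Both 22RV1 ratios changed sign under some scalings. The highest 22RV1 ratios were 0.19 in CARS2 and SARS2, the enzymes for cysteine and serine, both of which were below control in PC3 at −0.23 and −0.26.

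The cytosolic median was 0.30 lower than the mitochondrial one in 22RV1 on the log2 scale (a difference of −0.30) and 0.099 higher in PC3. Over the alternatives tried these differences ranged from −0.35 to −0.21 and from 0.068 to 0.101. Comparing enzymes for the same amino acid, available for 13 pairs of genes, the cytosolic ratio was below the mitochondrial one in 11 pairs in 22RV1 and in 6 in PC3. The median difference within a pair was −0.34 and 0.028. The widest 22RV1 gaps were serine (SARS1 −0.63, SARS2 0.19), cysteine (CARS1 −0.61, CARS2 0.19), threonine (TARS1 −0.56, TARS2 0.10) and alanine (AARS1 −0.46, AARS2 0.14). In PC3 the widest were methionine, where MARS1 exceeded MARS2 by 0.72, and tyrosine, where YARS1 exceeded YARS2 by 0.59. The exceptions in 22RV1 were valine (VARS1 0.22, VARS2 −0.08) and histidine (HARS1 −0.16, HARS2 −0.21).

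**Figure D4:**
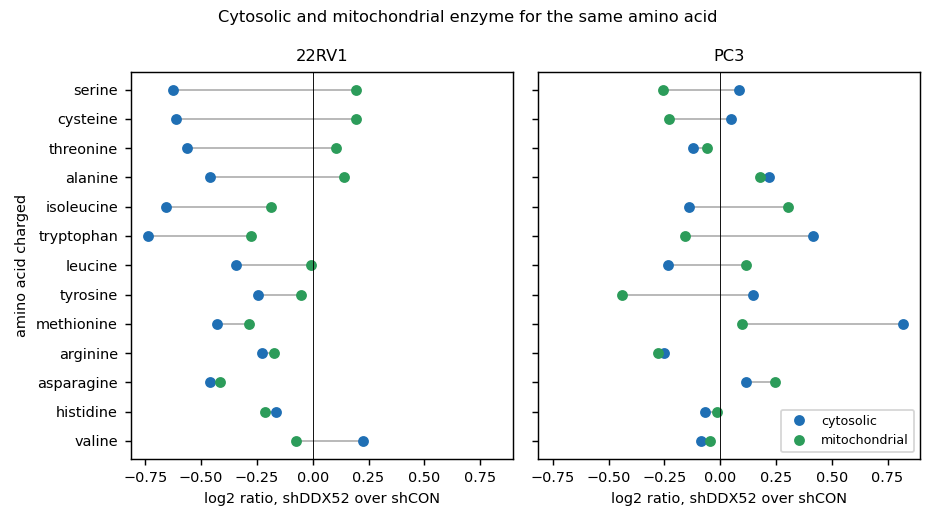
Log2 ratios of the cytosolic and mitochondrial enzyme for each of 13 amino acids, joined by a line, in 22RV1 and PC3. The cytosolic point lies to the left of the mitochondrial one in 11 pairs in 22RV1 and in 6 in PC3.

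At the level of TPM, the cytosolic gene of a pair was the more abundant in 11 of 13 pairs in 22RV1 shCON and in 9 in 22RV1 shDDX52, and in 11 in each PC3 library. The tryptophan pair was the most unequal in 22RV1 shCON, where WARS1 was 56.03 times WARS2, and 42.8 times with shDDX52. For cysteine the order of the genes turned, since CARS1 was 1.32 times CARS2 in 22RV1 shCON and 0.746 times with shDDX52. Isoleucine turned as well, with IARS1 at 1.16 times IARS2 in 22RV1 shCON and 0.832 times with shDDX52.

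HARS1 and HARS2 lie head to head on chromosome 5, with RefSeq starts 85 bases apart, and their promoter windows overlap. The stretch common to both windows is shown because it belongs to a cytosolic and a mitochondrial member. The first bases of both genes at these RefSeq starts are in capitals, read on the plus strand of GRCh38.p14.
HARS1 and HARS2 (chr5:140691321-140691504): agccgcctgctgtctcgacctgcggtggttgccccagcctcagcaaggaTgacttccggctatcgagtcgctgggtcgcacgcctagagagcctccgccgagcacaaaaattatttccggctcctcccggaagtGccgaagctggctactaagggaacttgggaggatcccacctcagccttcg

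HARS1, for cytosolic histidine, was 79.33 TPM (shCON) and 70.7 TPM (shDDX52) in 22RV1, and 67.08 and 63.92 TPM in PC3. HARS2 was 21.89, 18.74, 12.26 and 12.13 TPM in that order. Their ratios differed by 0.05 in 22RV1 and by −0.05 in PC3, HARS1 minus HARS2, among the smallest gaps of the 13 pairs. Small gaps were not particular to these neighbours, since RARS1 and RARS2, on different chromosomes, differed by −0.05 and 0.03. The annotated exons of the genes share 437 bases on opposite strands, so part of their reads may not be separable.

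The scaffold proteins were below control in both lines, 3 of 3 in each, with medians of −0.25 and −0.32. With 58.8% and 53.5% of all genes below 0, a count over 3 genes says little. EEF1E1, also called AIMP3, fell in PC3. It was 18.48 TPM (shCON) and 14.81 TPM (shDDX52) in 22RV1, and 71.41 and 46.15 TPM in PC3, with ratios of −0.30 and −0.62. PC3 shCON was thus its highest library. With length and GC centring its PC3 ratio was −0.30. AIMP2 was 204.79, 172.53, 65.35 and 62.41 TPM, and AIMP1 22.65, 21.72, 18.58 and 14.7 TPM. The sign of AIMP1 in 22RV1 and of AIMP2 in PC3 depended on scaling.

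The 7 enzymes held in the complex (EPRS1, IARS1, KARS1, LARS1, MARS1, QARS1 and RARS1) had a 22RV1 median of −0.35 and a PC3 median of −0.14, and the 12 free enzymes −0.46 and 0.099. In 22RV1 6 of 7 complex enzymes and 10 of 12 free ones were below 0. In PC3 5 of 7 and 4 of 12 were, beside 58.8% and 53.5% of all genes in the 2 lines. The catalytic classes, which differ in the fold of the active site, had 22RV1 medians of −0.35 over 9 class I and −0.46 over 9 class II cytosolic enzymes, EPRS1 left out because it joins both. In PC3 the classes had medians of 0.049 and 0.084. No difference between these divisions was tested.

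Both lines together gave 4 patterns. Of the cytosolic enzymes 8 were below control in 22RV1 and above it in PC3, 8 were below in both, 2 were above in both and 1, VARS1, was above in 22RV1 and below in PC3. All 8 with the first pattern (AARS1, CARS1, GARS1, MARS1, NARS1, SARS1, WARS1 and YARS1) were ATF4-listed, where 12 of all 19 are. As the list was set with earlier results of these data known, this overlap is no independent result. Of the mitochondrial enzymes 5, 7, 1 and 3 showed these patterns. Over the 12175 genes that passed in both lines the shares were 27.4%, 32.5%, 18.5% and 21.4%. The pattern is uncertain for the members whose sign depended on scaling, CARS1 and VARS1 among them.

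**Figure D5:**
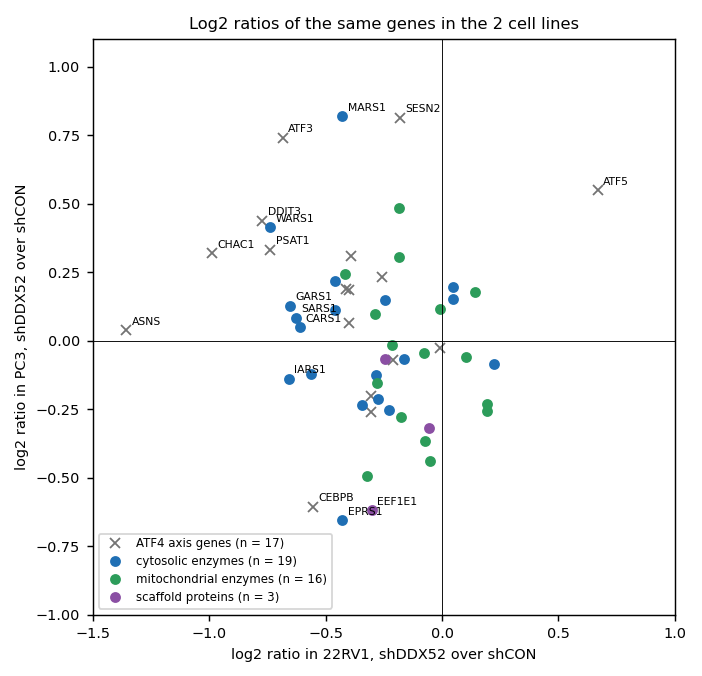
Log2 ratio in PC3 (vertical axis) against that in 22RV1 (horizontal axis), 1 point per gene, coloured by group, with lines at 0 and grey crosses for the 17 ATF4 pathway genes that reached 1 TPM in both lines. MARS1 at −0.43 and 0.82 and WARS1 at −0.74 and 0.41 lie in the upper left, and EPRS1 at −0.43 and −0.66 in the lower left.

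The control libraries of the lines also differed. The median log2 ratio of 22RV1 shCON over PC3 shCON was 0.497 for the cytosolic and 0.233 for the mitochondrial enzymes, against 0.067 for all genes. Of the cytosolic enzymes 9 were at least 1.5-fold higher in 22RV1 and 2 at least 1.5-fold lower, where 32.2% and 29.3% of all genes were. Of the mitochondrial enzymes 7 were higher and 2 lower. All 9 higher and both lower cytosolic enzymes were ATF4-listed, where 12 of all 19 are. That list was set with earlier results of these data known, so the overlap is a description. WARS1 was 3.53-fold, AARS1 3.15-fold, YARS1 2.80-fold and GARS1 2.31-fold higher in 22RV1, while LARS1 was 2.38-fold and TARS1 1.78-fold higher in PC3. The 5 enzymes that fell with shDDX52 in 22RV1 were also higher in 22RV1 shCON than in PC3 shCON. Both comparisons use the same 22RV1 shCON library, so a shift in that library and a change with shDDX52 cannot be told apart here. The shDDX52 levels of these 5 in 22RV1 were above those of PC3 shCON. EEF1E1 stood the other way and was 3.86-fold higher in PC3. In bulk libraries, fewer cells in a given state and less RNA per cell cannot be told apart.

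Other members share exon bases with a neighbour. SARS2 shares 349 bases with MRPS12 on the opposite strand, which was at 124.85 to 171.96 TPM and above SARS2 in each library. On the same strand, VARS2 shares 1858 bases with GTF2H4, and HARS2 shares 152 bases with ZMAT2. ZMAT2 was at 54.07 to 66.88 TPM and above HARS2 in each library. KARS1 shares 176 bases with TERF2IP, WARS1 shares 287 with WDR25 and AIMP2 shares 532 with EIF2AK1, all on the opposite strand. Values of these members are uncertain to the extent that the authors' counting could split such reads.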

How the data were processed

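RNA from 4 libraries, 1 per condition, was prepared with an Illumina TruSeq kit. The submitters' processing notes name CASAVA, HISAT2 and hg19, and the authors deposited TPM for 60671 Ensembl genes. The program that computed TPM, the annotation release and the strand setting are not given in the sources used here. Of these identifiers, 58453 are in GENCODE 29 (GRCh38), which gave exons, lengths and GC content, and 2218 are not. Positions of promoters are from RefSeq on GRCh38.p14 and not from the authors' build.

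Log2 ratios used a pseudocount of 1 TPM and genes that reached 1 TPM in at least 1 library of a line. The pseudocount understates changes of low genes. A gene was said to have risen or fallen from 1.5-fold. TPM keeps no depth, so precision is unknown and no interval was given. All 38 members could be named, with full values for those past the fold and for the highest and lowest of each group, and up to 5 genes per pathway list. Members and lists were chosen with earlier results of these data known. The computation was tested on simulated data. Alternatives covered pseudocount, filter, scaling, fold, length and GC content (10 by 10 bins), and leaving out GARS1 and KARS1. Scripts ran in Python 3.11.15 with pandas 2.3.3, numpy 2.4.6 and matplotlib 3.10.9. Some markers of the lines are not reported here.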

Additional observations from a re-analysis of the deposited data

Results flagged for a closer look

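Ratios below 0 in 22RV1 and above 0 in PC3 stood out for several members, given as the PC3 minus the 22RV1 log2 ratio. No member passed 1.5-fold in opposite directions, and the PC3 ratios of GARS1, SARS1 and CARS1 were only 0.13, 0.08 and 0.05. Each rests on 1 library per condition, and none of these differences was tested. The median of the cytosolic enzymes differed by 0.476, that of the ATF4-listed enzymes by 0.609 and the cytosolic minus mitochondrial difference by 0.401. Among the members past 1.5-fold in a line, MARS1 differed by 1.247, WARS1 by 1.15, GARS1 by 0.78, SARS1 by 0.71 and CARS1 by 0.66. The PC3 ratio of CARS1 changed sign with length and GC centring.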

How the results depend on the processing

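No paired analysis was possible because the labels carry no replicate numbers and every condition holds a single library. Over 10 alternative settings, 22 medians and counts gave 185 values, of which 156 kept their direction and size, 25 moved and 4 reversed. The 76 member ratios gave 530 values, of which 439 kept their size, 91 moved and 0 past the fold reversed. In 22RV1, the count of 5 cytosolic enzymes that fell became 1 with centring on the median of all genes, 3 without genes of the mitochondrial genome and the 20 highest genes, 1 with length and GC centring, 11 at a lower fold (a log2 ratio of 0.32) and 0 at 2-fold. The cytosolic median became −0.21 with length and GC centring. The mitochondrial median became −0.050 with median centring, −0.068 without those genes and −0.0041 with length and GC centring. The mitochondrial count lower became 1 at the lower fold. The median of the other cytosolic enzymes became −0.088, −0.10 and 0.015 under these 3 scalings and −0.059 without GARS1 and KARS1. In PC3, nuclear protein-coding TPM gave 0.18 for the cytosolic, 0.23 for the ATF4-listed, 0.045 for the other cytosolic and 0.077 for the mitochondrial median, with 0 cytosolic enzymes lower and 1 mitochondrial enzyme higher. Length and GC centring gave 0.0028 for the other cytosolic enzymes, 0.092 for the ATF4-listed minus other difference, and 1 mitochondrial enzyme lower and 1 higher. At the lower fold 2 cytosolic enzymes were higher, 3 mitochondrial enzymes lower and 1 higher, and at 2-fold 0 cytosolic enzymes were lower and 0 higher. The cause of these changes was not tested. The depth behind each value is unknown.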

Other observations

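Genes that work on the same tRNAs were examined as a list of 18 tRNA partners. In 22RV1 14 of 18 were below 0 with a median of −0.12, and in PC3 13 of the 17 that passed were, with a median of −0.089. Of all genes 58.8% and 53.5% were below 0, with medians of −0.076 and −0.036. The medians of the list thus lay close to those of all genes, while its shares below 0 were higher, at 77.8% and 76.5%. In each line 2 genes of the list fell and 0 rose, where 8.47% of all genes fell in 22RV1 and 9.84% in PC3. SEPHS2, which makes the selenium donor for selenocysteine tRNA, was 93.95 and 59.71 TPM in 22RV1 (−0.65) and 41.24 and 39.39 in PC3. XPOT, the export receptor for tRNA, was 23.19 and 14.83 TPM in 22RV1 (−0.61) and 22.25 and 21.12 in PC3. In PC3 PUS1, a pseudouridine synthase, fell at −0.73, with 64.79 and 38.68 TPM, and PSTK, a kinase in the selenocysteine pathway, at −0.69 on values of 3.47 and 1.77 TPM.

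The 6 translation elongation factors, which receive the loaded tRNA, had medians of −0.033 and −0.040, and 0 of 6 passed the fold in either line. EEF1A1, which delivers the loaded tRNA to the ribosome, had the lowest 22RV1 ratio at −0.50, with 3042.67 and 2148.27 TPM, and was 3365.05 and 2908.05 TPM in PC3 (−0.21).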
